A study of Homo sapiens with 12 samples.

Results

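The genes described here are 10 transporters that carry amino acids across the plasma membrane: SLC3A2, SLC7A5, SLC7A6, SLC43A1, SLC7A1, SLC1A4, SLC1A5, SLC38A1, SLC38A2 and SLC6A9. They were found by matching their symbols to Ensembl IDs in the count table of HT29 cells, and each symbol had a single ID. The table holds 60675 gene IDs, of which 15374 passed the filter on low counts and were tested, and all 10 transporters were among those tested. HT29 cells are an established human line of colorectal adenocarcinoma origin. They were exposed for 24 h to a water extract of Aconitum carmichaeli Debeaux (ACD), a medicinal herb, at concentrations of 20, 100 and 500 µg/mL, called the low, medium and high dose. The extract was prepared in PBS with 2% DMSO, and control cells received this vehicle alone. The 2% is that of the solution before it was added to the medium. The 4 groups had 3 RNA libraries each and shared the culture medium (DMEM with fetal bovine serum) and the time of exposure. The study compared each dose with the vehicle. The sources do not say whether the 3 libraries of a group came from separate cultures, so the p-values measure the spread between these libraries, which may be technical. The libraries were grouped by their titles and treatment field, which name ACD, although the protocol text of the same libraries speaks of Poria cocos, another herb. A single cancer cell line was used, and bulk RNA pools all cells of a culture, so a higher level in every cell and a higher level in some cells cannot be told apart.

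Amino acids cannot cross the lipid bilayer by themselves, and cells take them up through carriers of several solute carrier (SLC) families. Some carriers exchange an amino acid inside the cell for another outside, whereas others use the sodium gradient to concentrate amino acids in the cell. The exchangers depend on the sodium-driven carriers, which supply the amino acids that are exchanged. When amino acids run short, the kinase GCN2 and the transcription factor ATF4 raise the transcription of several transporters and biosynthetic enzymes, and imported leucine and glutamine in turn feed the mTORC1 pathway. Tumour cells, colorectal cancer cells included, often carry high levels of several of these transporters.

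The total per library ranged from 15941255 to 33866644 expected counts, and high-dose replicate 2 had the lowest total. This library also stood apart from the other 11 on the first principal component of log2 CPM (counts scaled to the library size), at −70.7 against −14.7 to 14.5. The difference of each member between the high dose and the vehicle is therefore given with it and without it. Mitochondrial ribosomal RNAs took 0.98 to 1.22% of the counts at the vehicle and low dose, 1.96 to 2.18% at the medium dose and 11.3 to 12.5% at the high dose. With all genes of the mitochondrial genome left out, 7 members passed the test at the high dose. All 10 colon epithelial markers were tested, and their summed level was between 10960 and 13146 CPM in every library. CEACAM5, a cell adhesion gene, was the only marker of the 10 that passed the test at the high dose, with a log2 difference of 0.70. Of 12 markers of leukocytes, fibroblasts, endothelium, liver, glia and neurons, 9 were under 1 CPM in all libraries. The summed level of the 12 was 10.2 to 11.1 CPM in the vehicle libraries and 12.7 to 15.3 CPM at the high dose. Of these 12, CD68, a macrophage marker, passed the test at the high dose with a log2 difference of 0.57, and its part in the results was not tested.

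At the high dose, 7 of the 10 transporters rose and none fell (edgeR, adjusted p under 0.05 over all genes tested). The share of all genes tested that rose in this comparison was 2.82%, but the members and the lists further on were chosen with earlier results of these data known. With a fold change over 1.5 also required, 5 members were called, where 1.26% of all genes tested were. SLC6A9 rose most, followed by SLC1A4, SLC7A5, SLC3A2 and SLC38A2, with smaller rises of SLC43A1 and SLC1A5. SLC7A1, SLC38A1 and SLC7A6 did not pass the test. The median log2 fold change of the 10 was 0.56, and that of all genes tested was 0.01. Without high-dose replicate 2, 9 of the 10 members passed, and SLC7A6 was the exception. All genes past the test, in either direction, numbered 887 in the fit of all libraries and up to 2934 with a library left out. The 2.82% is therefore not the share that belongs to the count of 9. In an edgeR fit of the vehicle and high-dose libraries only, 4 members passed (SLC3A2, SLC38A2, SLC1A4 and SLC6A9). All genes past the test in that fit, in either direction, numbered 181.

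**Figure D1:**
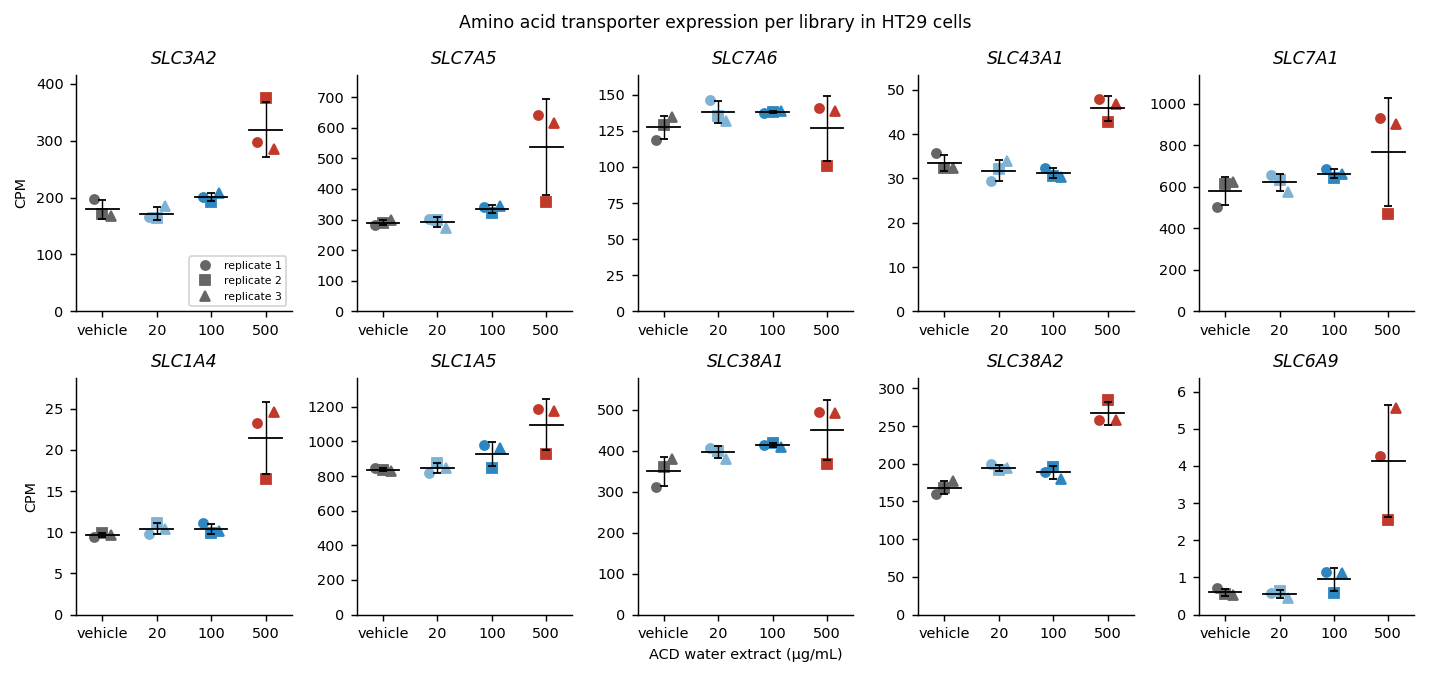
CPM of each transporter (vertical axis, from 0, with a scale of its own per panel) in the vehicle group and at 20, 100 and 500 µg/mL (horizontal axis). Points are libraries with a marker shape per replicate number, and bars are the mean ± SD of 3 libraries. For 7 of the 10 genes all high-dose points lie above all vehicle points, and high-dose replicate 2 (square) is the lowest high-dose point except for SLC3A2 and SLC38A2.

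Short DNA sequences near the transcription starts are shown first, since several of these genes are known targets of ATF4. ATF4 binds, with a C/EBP partner, a composite site whose core was searched here as TGATGNAA, where N is any base. The search covered both strands of RefSeq promoter windows on GRCh38.p14, each running from 250 bases before to 50 bases after a start. The 10 members had 17 windows, since some have more than 1 start. The core was in 5 of the 17 windows, against 3.62% of 35116 windows of all genes. By gene, 5 of the 10 members and 4.46% of 27305 genes had it, but the members had more windows per gene, which favours their count. Some windows lie at starts inside a gene, and use of each start in HT29 cells was not tested. The 30 bases around each match are given on the strand of the gene, with the match in capitals. The enzyme gene ASNS and the glutathione-degrading enzyme gene CHAC1 are shown for comparison, because they are established ATF4 targets and belong to the response described further on. Most genes of that response lacked the core, which was in 4 of the 18 that had windows. It was in 1 of 21 other plasma membrane amino acid transporters and in 1 of 24 genes of lysosomal transport and mTORC1 sensing.

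SLC1A4, chr2:64989381-64989410, plus strand: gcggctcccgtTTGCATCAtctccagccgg
SLC3A2, chr11:62881719-62881748, plus strand: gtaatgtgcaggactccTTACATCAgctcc
SLC38A1, chr12:46266502-46266531, minus strand: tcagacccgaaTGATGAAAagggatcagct
SLC7A1, chr13:29595663-29595692, minus strand: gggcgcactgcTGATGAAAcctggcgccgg
SLC1A5, chr19:46784893-46784922, minus strand: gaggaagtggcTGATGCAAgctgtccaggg
ASNS, chr7:97872458-97872487, minus strand: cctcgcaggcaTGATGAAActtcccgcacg
CHAC1, chr15:40953251-40953280, plus strand: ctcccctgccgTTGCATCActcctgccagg

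The matches of SLC1A4 and SLC3A2 lie in the reverse orientation, and those of SLC38A1, SLC7A1 and SLC1A5 in the direction of the gene. SLC38A1, SLC7A1 and ASNS share the same matched letters. Of the 7 members that rose at the high dose, SLC1A4, SLC3A2 and SLC1A5 had a match, and of the 3 that did not pass, SLC38A1 and SLC7A1 had one. The match is a description of these letters in these windows, and a binding site was not measured. The E-box CACGTG, a palindrome that MYC and related factors bind, was in 3 of the 17 member windows against 7.26% of all windows. It was also in 7 of 35 windows of the lysosomal transport and mTORC1 sensing genes, so it was not particular to the members. The other plasma membrane amino acid transporters had it in 4 of 31 windows, and the genes of the ATF4 response in 3 of 28. Among the members it lay near starts of SLC7A5, SLC43A1 and SLC1A5.

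SLC7A5, chr16:87869620-87869649, minus strand: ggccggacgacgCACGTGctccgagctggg
SLC43A1, chr11:57515797-57515826, minus strand: cagcgggcgagtCACGTGcgcgtgaaactc
SLC1A5, chr19:46787326-46787355, minus strand: ggcgggagtggtCACGTGgacaggacgggg

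The 250 bases before a RefSeq start of SLC7A5 and of SLC6A9 are printed in full. SLC7A5 was chosen because it encodes the main large neutral amino acid carrier, and SLC6A9 because it had the largest rise. The stretch of SLC6A9 reaches slightly into the gene span given further on, which comes from another annotation. The E-box of SLC7A5 is in capitals, and the window of SLC6A9 held neither motif. Guanine and cytosine made up 79.6% of the bases of the first and 57.6% of the second.

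SLC7A5, chr16:87869508-87869757, minus strand: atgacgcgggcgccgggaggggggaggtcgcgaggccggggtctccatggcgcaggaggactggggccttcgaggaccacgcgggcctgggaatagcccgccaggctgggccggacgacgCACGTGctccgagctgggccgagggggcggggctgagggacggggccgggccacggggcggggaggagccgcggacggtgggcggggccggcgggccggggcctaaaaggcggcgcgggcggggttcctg
SLC6A9, chr1:44031463-44031712, minus strand: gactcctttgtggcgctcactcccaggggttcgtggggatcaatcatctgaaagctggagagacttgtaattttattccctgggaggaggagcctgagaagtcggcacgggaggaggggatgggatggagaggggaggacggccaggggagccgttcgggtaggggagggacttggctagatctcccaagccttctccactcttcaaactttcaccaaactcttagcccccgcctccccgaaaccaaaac

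Levels of different genes were compared per kilobase of exon length (the union of annotated exons), in the vehicle libraries. SLC1A5 was the highest, at 251 ± 2.71 CPM per kilobase (SD, n = 3). SLC7A1 followed at 75.4 ± 8.58, SLC7A5 at 60.7 ± 1.75, SLC38A1 at 34.9 ± 3.50 and SLC3A2 at 28.1 ± 2.58 CPM per kilobase. The ranges of SLC3A2 and SLC38A2, at 25.9 ± 1.41 CPM per kilobase, overlapped, and no other neighbours in this order did. SLC38A1 and SLC3A2 were barely apart, with a lowest library at 31.06 and a highest at 31.04 CPM per kilobase, so their order is uncertain. SLC7A6 had 16.8 ± 1.07, SLC43A1 had 9.5 ± 0.53 and SLC1A4 had 1.40 ± 0.04 CPM per kilobase, and SLC6A9 was the lowest at 0.11 ± 0.02. The summed level of the 10 genes was 2466 to 2652 CPM in the vehicle libraries, 2625 to 2741 at the low dose, 2796 to 2991 at the medium dose and 2942 to 4029 at the high dose. SLC1A5 and SLC7A1 held 47.4 to 55.6% of this sum in every library.

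The heavy chain came first among the roles. SLC3A2 (ENSG00000168003, chr11:62856004-62888880, plus strand, GRCh38) encodes CD98hc, which carries no substrate itself but brings its light chains to the cell surface by a disulfide bond. SLC3A2 was measured at 198, 172 and 168 CPM in vehicle replicates 1, 2 and 3, at 165, 165 and 184 CPM at the low dose, at 201, 193 and 207 CPM at the medium dose and at 297, 375 and 286 CPM at the high dose. The high-dose libraries all lay above the other 9, and replicate 2 was the highest of them. SLC3A2 rose by 0.83 ± 0.11 on the log2 scale (SE, adjusted p = 0.000598) at the high dose, and by 0.70 without replicate 2. From the medium to the high dose it rose by 0.67 ± 0.11 (adjusted p = 0.00974), a call that was lost when any medium-dose library was left out. At the medium and low doses its log2 differences from the vehicle were 0.16 ± 0.11 and −0.07 ± 0.11, and neither passed the test.

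SLC7A5 (ENSG00000103257, chr16:87830023-87869507, minus strand) encodes LAT1, the light chain that imports leucine and other large neutral amino acids in exchange for glutamine. SLC7A5 was measured at 282, 288 and 298 CPM in the vehicle libraries, at 301, 299 and 272 CPM at the low dose, at 339.7, 320.0 and 345 CPM at the medium dose and at 640.4, 357 and 617 CPM at the high dose. High-dose replicates 1 and 3 were far above all other libraries, and replicate 2 lay only slightly above the medium dose, at 0.57 times the mean of the other two. SLC7A5 rose at the high dose by 0.90 ± 0.17 on the log2 scale (adjusted p = 0.00775), a fold change of 1.86, and by 1.12 without replicate 2. In the edgeR fit of vehicle and high-dose libraries only, this call was lost (adjusted p = 0.134). The step from the medium to the high dose was 0.69 ± 0.17 and did not pass (adjusted p = 0.110), whereas it passed without high-dose replicate 2 (log2 difference 0.91). At the medium dose all libraries lay above all vehicle libraries, with a log2 difference of 0.21 ± 0.17 that did not pass the test.

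SLC7A6 (ENSG00000103064, chr16:68264516-68301823, plus strand) encodes y+LAT2, another light chain of SLC3A2, which exports arginine in exchange for neutral amino acids and sodium. SLC7A6 was at 118, 129 and 134 CPM in the vehicle libraries, at 147, 136 and 132 CPM at the low dose, at 138, 138 and 139 CPM at the medium dose and at 141, 101 and 139 CPM at the high dose. The high-dose libraries lay on both sides of the vehicle libraries, with replicate 2 below all of them. Its log2 difference at the high dose was −0.01, with a 95% interval from −0.25 to 0.24 and an adjusted p of 0.989. Without replicate 2 it was 0.13 and did not pass either. A rise as large as that of SLC7A5 lies outside this interval.

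SLC43A1 (ENSG00000149150, chr11:57484534-57515780, minus strand) encodes LAT3, a facilitator of branched-chain and other large neutral amino acids that needs no heavy chain. SLC43A1 was at 35.7, 32.4 and 32.4 CPM in the vehicle libraries, at 29.3, 32.2 and 33.8 CPM at the low dose, at 32.4, 30.6 and 30.4 CPM at the medium dose and at 47.8, 42.7 and 46.9 CPM at the high dose. All high-dose libraries were above all others, and high-dose replicate 2 was close to the other 2 libraries of its group. SLC43A1 rose by 0.45 ± 0.08 on the log2 scale (adjusted p = 0.00466), and by 0.50 without replicate 2. It rose by 0.56 ± 0.08 from the medium to the high dose (adjusted p = 0.00444). Both calls were lost in the edgeR fits of only the groups compared.

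SLC7A1 (ENSG00000139514, chr13:29509414-29595688, minus strand) encodes CAT1, a carrier of arginine, lysine and ornithine. SLC7A1 was at 504, 615 and 621 CPM in the vehicle libraries, at 657, 633 and 574 CPM at the low dose, at 687, 642 and 660.4 CPM at the medium dose and at 932, 469 and 904 CPM at the high dose. High-dose replicates 1 and 3 lay above every other library, and high-dose replicate 2 lay below every other library. Replicate 2 was at 0.51 times the mean of the other 2. The log2 difference at the high dose was 0.41 ± 0.20 and did not pass the test (adjusted p = 0.289). Without replicate 2 it was 0.66 and passed (adjusted p = 2.28e-05), so this call turned on that library.

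SLC1A4 (ENSG00000115902, chr2:64988477-65023865, plus strand) and SLC1A5 (ENSG00000105281, chr19:46774883-46788594, minus strand) encode the sodium-dependent exchangers ASCT1 and ASCT2. ASCT1 carries alanine, serine and cysteine, and ASCT2 is a main glutamine carrier of many tumour cells. SLC1A4 was at 9.41, 9.94 and 9.71 CPM in the vehicle libraries, at 9.76, 11.1 and 10.4 CPM at the low dose, at 11.1, 9.96 and 10.1 CPM at the medium dose and at 23.2, 16.5 and 24.7 CPM at the high dose. The vehicle, low-dose and medium-dose libraries were close together, and all high-dose libraries lay above them. SLC1A4 rose by 1.16 ± 0.13 on the log2 scale (adjusted p = 0.000231), a fold change of 2.23, and by 1.3 without replicate 2. Nearly the same rise, 1.06 ± 0.13 (adjusted p = 0.0023), was measured from the medium to the high dose.

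SLC1A5 was at 847, 834 and 829.9 CPM in the vehicle libraries, at 815, 873 and 844 CPM at the low dose, at 977, 848 and 961 CPM at the medium dose and at 1189.8, 926 and 1175 CPM at the high dose. The high-dose libraries were above all vehicle libraries, but replicate 2 lay within the range of the medium dose. SLC1A5 rose by 0.39 ± 0.10 on the log2 scale at the high dose (adjusted p = 0.0418), and by 0.50 without replicate 2. This was the least firm of the 7 calls, since it was kept in 7 of 20 other settings, with adjusted p-values up to 0.289. The step from the medium dose, 0.24 ± 0.10, did not pass the test (adjusted p = 0.467).

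SLC38A1 (ENSG00000111371, chr12:46183063-46270017, minus strand) and SLC38A2 (ENSG00000134294, chr12:46358188-46372773, minus strand) are neighbours on chromosome 12, 88.2 kilobases apart on the same strand. They encode SNAT1 and SNAT2, carriers of system A that use sodium to concentrate alanine, glutamine and other small neutral amino acids. SLC38A1 was at 311, 359 and 379 CPM in the vehicle libraries, at 408, 400.2 and 380.1 CPM at the low dose, at 415, 418 and 409.9 CPM at the medium dose and at 495, 367 and 492 CPM at the high dose. Every low-dose and medium-dose library lay above the vehicle libraries, whereas high-dose replicate 2 lay within the vehicle range. The log2 differences from the vehicle were 0.18 ± 0.11, 0.24 ± 0.11 and 0.37 ± 0.11 at the low, medium and high doses, and none passed the test (adjusted p = 0.0819 at the high dose). Without high-dose replicate 2, the high-dose difference was 0.50 and passed, as did the medium-dose difference.

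SLC38A2 was at 159, 168 and 178 CPM in the vehicle libraries, at 199, 191 and 194 CPM at the low dose, at 189, 196 and 180.1 CPM at the medium dose and at 258, 285 and 258 CPM at the high dose. All libraries with extract lay above all vehicle libraries, and the high-dose libraries lay above the rest. SLC38A2 rose by 0.66 ± 0.07 on the log2 scale at the high dose (adjusted p = 0.000155), and by 0.62 without replicate 2, which was here the highest of the 3. It rose by 0.50 ± 0.07 from the medium to the high dose (adjusted p = 0.00444). The low-dose and medium-dose differences from the vehicle, 0.21 ± 0.07 and 0.16 ± 0.07, did not pass after adjustment (adjusted p = 0.431 and 0.396). SLC38A2 was the only member with an unadjusted p under 0.05 at these doses.

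SLC6A9 (ENSG00000196517, chr1:43991500-44031467, minus strand) encodes GLYT1, a sodium- and chloride-dependent glycine carrier. SLC6A9 was at 0.72, 0.55 and 0.53 CPM in the vehicle libraries, at 0.58, 0.63 and 0.45 CPM at the low dose, at 1.15, 0.59 and 1.11 CPM at the medium dose and at 4.28, 2.55 and 5.57 CPM at the high dose. These levels rest on 10 to 27 counts per library at the vehicle, low and medium doses and on 36 to 181 counts at the high dose. Every high-dose library lay above every other library, although the gene stayed the lowest of the 10. SLC6A9 rose by 2.84 ± 0.32 on the log2 scale (adjusted p = 0.000249), a fold change of 7.18 with a 95% interval from 4.43 to 11.6, and by 3.07 without replicate 2. From the medium to the high dose it rose by 2.19 ± 0.30 (adjusted p = 0.00404). The medium-dose difference from the vehicle was 0.66 ± 0.37 and did not pass.

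SLC7A5, SLC7A6, SLC1A4, SLC1A5, SLC38A2 and SLC6A9 overlap a gene on the opposite strand. The library kit keeps the strand, but the strand setting of the counting is not given in the sources used here, so their values are uncertain to that extent. At SLC6A9, the low level makes this most relevant, and the overlapping gene CCDC24 was at 2.48 to 3.27 CPM in the vehicle libraries and at 1.77 to 3.14 CPM at the high dose. SLC7A6OS, which overlaps SLC7A6, was at 16 to 21.2 CPM in the vehicle libraries and at 20.5 to 23.7 CPM at the high dose. Neither of these genes passed the test at the high dose, and the genes LINC02245 and SLC38A2-AS1 had no counts in the vehicle and high-dose libraries.

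**Figure D2:**
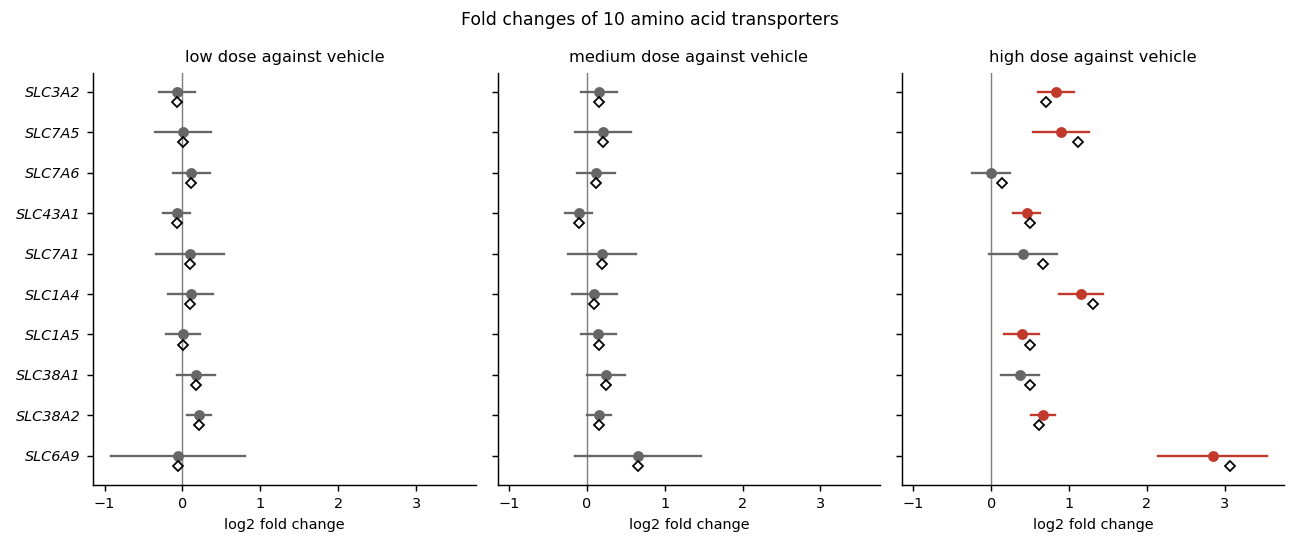
Log2 fold change against the vehicle (horizontal axis) of each transporter at the low, medium and high dose (panels). Points are estimates from the fit of 12 libraries, bars are 95% intervals, red points passed the test, grey points did not, and open diamonds are the estimates without high-dose replicate 2. No member is red at the low or medium dose, and 7 are at the high dose.

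At the medium dose, 0 of 10 members passed the edgeR test against the vehicle, 1 had an unadjusted p under 0.05, and 0.572% of all genes tested rose. DESeq2 called 0 members when fitted on all libraries and 2 (SLC7A5 and SLC38A1) when fitted on the 2 groups only. The same 2 were called by edgeR without high-dose replicate 2. The 0.572% does not belong to these fits. All genes past the test, in either direction, numbered 155, 59 to 1077 with a library left out and 91 to 756 in the other settings. The medium-dose libraries lay above all vehicle libraries for 7 of the 10 members, where 14.5% of all genes tested did so, and their median log2 fold change was 0.16 against −0.01 for all genes. The members that overlapped were SLC3A2, SLC43A1 and SLC6A9. At the low dose, 0 of 10 members passed the edgeR test, 1 had an unadjusted p under 0.05, and 0.0715% of all genes tested rose. DESeq2 called 0 members at this dose in either fit, and edgeR without high-dose replicate 2 called SLC38A2. The 0.0715% does not belong to that fit, since all genes past the test numbered 19, and 10 to 318 with a library left out. Both system A genes had no overlap with the vehicle at the low dose, 2 of 10 members against 11.4% of all genes tested. With DESeq2 size factors the count was 1, and the lowest low-dose library of SLC38A1 was only slightly above the highest vehicle library. The median log2 fold change of the 10 at the low dose was 0.06. At the high dose the count without overlap was 7 of 10, against 10.5% of all genes tested. It was 10 of 10 without high-dose replicate 2, but groups with fewer libraries separate more easily. The share of all genes for that setting is not given here.

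In the steps between doses, 5 members rose from the medium to the high dose (SLC6A9, SLC1A4, SLC3A2, SLC43A1 and SLC38A2), where 0.572% of all genes tested did. Without high-dose replicate 2 the count was 8, with SLC7A5, SLC7A1 and SLC1A5 added. All genes past the test in this step, in either direction, numbered 137, up to 333 with a library left out and 10 to 251 in the other settings. In the edgeR fit of only the medium-dose and high-dose libraries the count of members was 0, although DESeq2 on the same 6 libraries called 5. From the low to the medium dose, 0 members passed the edgeR test, 0 had an unadjusted p under 0.05, and 0.13% of all genes tested rose. DESeq2 called 0 members in this step on all libraries and 2 (SLC3A2 and SLC7A5) on the 2 groups only, and edgeR on the 2 groups called SLC3A2. The 0.13% does not belong to these fits, since all genes past the test numbered 22, and 11 to 154 in settings that kept every library. The comparisons with the vehicle share the vehicle libraries, and adjacent steps share a dose group.

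The levels of related members were set against each other within each library, as 4 ratios of CPM, and each was compared between the vehicle and the high dose by a two-sided exact permutation test, where 3 libraries against 3 can give no p below 0.1, so no ratio could pass the test. The ratio of SLC7A5 to SLC7A6, both light chains of SLC3A2, was 2.38, 2.23 and 2.22 in the vehicle libraries and 4.55, 3.55 and 4.45 at the high dose. All high-dose libraries were above all vehicle libraries, also in replicate 2, with a log2 difference of 0.87 (exact permutation p = 0.1, adjusted 0.133 over the 4 ratios). The ratio of SLC1A4 to SLC1A5 was 0.0111, 0.0119 and 0.0117 in the vehicle libraries and 0.0195, 0.0178 and 0.0210 at the high dose, a log2 difference of 0.75 (exact permutation p = 0.1, adjusted 0.133). Again the groups did not overlap.

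The ratio of SLC38A2 to SLC38A1 was 0.512, 0.469 and 0.468 in the vehicle libraries and 0.521, 0.775 and 0.524 at the high dose, a log2 difference of 0.30 (exact permutation p = 0.1, adjusted 0.133). The groups did not overlap, but most of the difference came from replicate 2, and it was 0.11 without that library. The ratio of SLC7A5 to SLC3A2, the light chain to its heavy chain, was 1.42, 1.68 and 1.77 in the vehicle libraries and 2.16, 0.953 and 2.16 at the high dose. Here the groups overlapped, with replicates 1 and 3 above the vehicle libraries and replicate 2 below them. The log2 difference was 0.02 (exact permutation p = 1.0), and 0.42 without replicate 2.

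**Figure D3:**
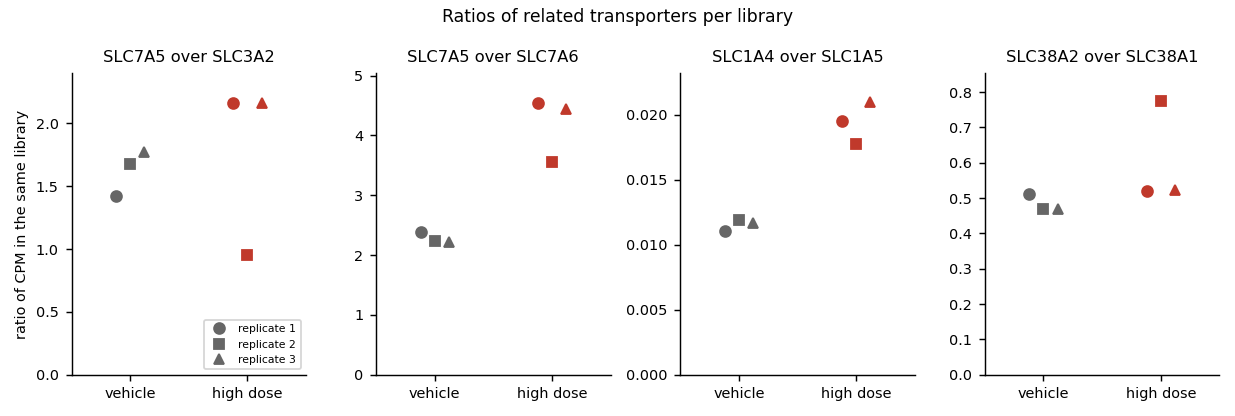
Ratio of the CPM of 2 related transporters (vertical axis, from 0) in each vehicle and high-dose library (horizontal axis), with a marker shape per replicate number. The SLC7A5 to SLC7A6 and SLC1A4 to SLC1A5 ratios are higher in all high-dose libraries, whereas high-dose replicate 2 (square) sets the spread of the SLC7A5 to SLC3A2 and SLC38A2 to SLC38A1 ratios.

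High-dose replicate 2 thus split the members. Against the mean of high-dose replicates 1 and 3, it was at 1.29 times for SLC3A2 and 1.10 times for SLC38A2, and below 1 for the other 8, from 0.51 times for SLC7A1 and 0.52 times for SLC6A9 to 0.90 times for SLC43A1. High-dose replicates 1 and 3 differed little from each other, with ratios from 0.94 to 1.04 except for SLC6A9 at 0.77.

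Of 30 other plasma membrane amino acid transporters, 13 were expressed highly enough to be tested. Of these, 2 rose and 1 fell at the high dose, where 433 of all 15374 genes tested rose and 454 fell. The median log2 fold change of the 13 was 0.03. SLC7A11, the cystine and glutamate exchanger and also a light chain of SLC3A2, was at 130 to 145 CPM in the vehicle libraries, 205 to 223 CPM at the medium dose and 269 to 351 CPM at the high dose. It rose by 1.2 ± 0.10 on the log2 scale at the high dose (adjusted p = 2.93e-05), and it was the only gene of this list called at the medium dose, where the call was kept in 17 of 20 other settings, with adjusted p-values up to 0.0696. SLC38A5, a carrier of glutamine and other neutral amino acids, rose by 0.33 ± 0.09 (adjusted p = 0.0447), a call kept in 6 of 20 other settings. SLC3A1, the heavy chain of the cystine and basic amino acid carrier, fell by 1.56 on the log2 scale (SE 0.20, adjusted p = 0.000525), from 3.15 to 3.87 CPM in the vehicle libraries to 0.98 to 1.31 CPM. The 2 heavy chain genes of amino acid transport thus moved in opposite directions at the high dose.

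Of 28 genes for lysosomal amino acid transporters and for the amino acid sensing of mTORC1, 27 were found by symbol and 25 were tested. At the high dose 2 rose and 2 fell, where 433 of all 15374 genes tested rose and 454 fell. The median log2 fold change of the list was −0.10. DDIT4, an inhibitor of mTORC1, was at 19.0 to 20.5 CPM in the vehicle libraries and 66.0 to 76.2 CPM at the high dose, a log2 rise of 1.83 ± 0.07 (adjusted p = 3.43e-08). Of the sestrins, which bind the GATOR2 complex upstream of mTORC1, SESN2 rose by 1.11 ± 0.13 (adjusted p = 0.000262), whereas SESN1 fell by 0.73 (SE 0.11, adjusted p = 0.00193) and SESN3 fell by 1.01 (SE 0.24, adjusted p = 0.0283). The call of SESN3 was kept in 14 of 20 other settings, with adjusted p-values up to 0.107. Without high-dose replicate 2, 5 genes of this list rose and 5 fell, and over all settings 2 to 5 rose and 1 to 5 fell. Among all genes tested, those past the test numbered 887, and up to 2934 with a library left out.

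Of 22 genes listed as ATF4 and genes of the amino acid response, 21 were tested. Of these, 17 rose and none fell at the high dose, where 2.82% of all genes tested rose. The median log2 fold change of the list was 0.79. The count that rose was also 17 without high-dose replicate 2, but the 2.82% is not the share that belongs to that fit. All genes past the test, in either direction, numbered 887, and up to 2934 with a library left out. In the edgeR fit of vehicle and high-dose libraries only, 10 rose, where 181 of all genes passed in either direction. ATF4 itself was at 237 to 271 CPM in the vehicle libraries and 349 to 421 CPM at the high dose, a log2 rise of 0.59 ± 0.08 (adjusted p = 0.00146), and its call was lost in that edgeR fit of 2 groups (adjusted p = 0.0749). ASNS, the asparagine synthetase gene, was at 55.5 to 56.5 CPM in the vehicle libraries, 63.2 to 63.7 CPM at the medium dose and 204 to 299.7 CPM at the high dose, a log2 rise of 2.08 ± 0.13 at the high dose (adjusted p = 1.94e-06). CHAC1 rose by 2.97 ± 0.14 and PSAT1, a serine synthesis gene, by 1.44 ± 0.08. The pseudokinase gene TRIB3 rose by 1.07 ± 0.07, the transcription factor gene ATF3 by 1.45 ± 0.15 and PCK2, the mitochondrial PEP carboxykinase gene, by 0.98 ± 0.08. Against the vehicle, edgeR called 0 genes of this list at the medium and low doses. From the medium to the high dose 15 rose, where 0.572% of all genes tested did.

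**Figure D4:**
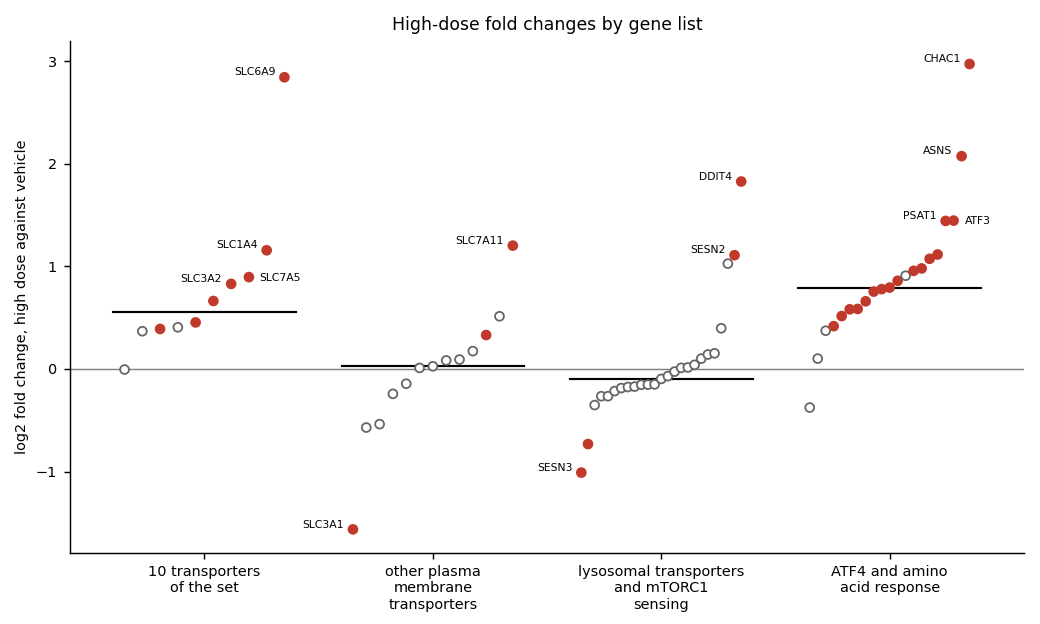
Log2 fold change at the high dose against the vehicle (vertical axis) of the tested genes of 4 lists (horizontal axis), ordered by value within each list. Filled red points passed the test, open points did not, and horizontal bars are the medians, at 0.56 for the 10 transporters, 0.03 for the other transporters, −0.10 for the lysosomal and mTORC1 list and 0.79 for the ATF4 list.

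The genes with the pattern most like that of a member were found by the root mean square difference of log2 CPM, each gene centred on its vehicle mean, over the 12 libraries and among 10617 genes with a mean of at least 5 CPM. For SLC7A5 these were PADI2 (0.151), VEGFA (0.16), GRB10 (0.171), SESN2 (0.175) and MAPRE3 (0.177). For SLC38A2 they were RCN1 (0.078), XPOT (0.0869), ZNF473 (0.0872), AARS1 (0.0888) and GARS1 (0.0909). The 5 genes nearest to SLC7A5 rose by 0.69 to 1.11 on the log2 scale at the high dose, and the 5 nearest to SLC38A2 by 0.57 to 0.79, as the choice by likeness to a member that rose would give. The libraries are shared by all these genes, and the measure is a description.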

How the data were processed

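Total RNA of 12 HT29 samples was made into libraries with a directional MGI kit and sequenced as paired reads. Per the submitters' processing notes, FastQC 0.11.9, Trim Galore 0.6.5, STAR 2.7.3a and RSEM 1.3.3 were used with GRCh38. The paper's methods give other versions of Trim Galore and STAR and write the build as GRCh38 with the older name hg19 beside it. The strand setting of RSEM is not given in the sources used here. The authors deposited RSEM expected counts per Ensembl gene ID, not normalized and with replicates kept apart. They were rounded to whole numbers here. Of 60675 IDs, 93.2% were in GENCODE release 44, which gave symbols, positions and exon lengths.

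Differences were tested in edgeR 4.0.16, run under R 4.3.3, by its quasi-likelihood F test with robust dispersions, after filterByExpr and TMM, over all 12 libraries in 4 groups, with Benjamini-Hochberg adjustment over 15374 genes. The biological coefficient of variation was 11.2%. A gene passed with an adjusted p under 0.05. CPM used TMM library sizes, log2 CPM a prior count of 2, and the SE came from the F statistic. Intervals are at 95%. Alternatives were DESeq2 1.42.0 on all libraries or 2 groups, edgeR on 2 groups, DESeq2 size factors, no filter, at least 10 counts in every library, the replicate number as a block, a fold change over 1.5, and each library left out. Chosen after seeing the data were the removal of the genes of the mitochondrial genome, the counts without overlap under other scalings, and the ratios with a library left out. The tests were checked on simulated data with known changes. No 2 libraries of the same group agreed within sampling noise, and pairs from different groups were not checked.

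The named genes are all members, at most 6 genes with the smallest p per other list among those past the test at the high dose, SLC7A11, ATF4, ASNS and TRIB3, and the 5 genes nearest to SLC7A5 and to SLC38A2. CCDC24, SLC7A6OS, LINC02245 and SLC38A2-AS1 were named for overlapping a member, and other overlapping genes are not reported here. The members and lists were chosen with earlier results of these data known. SAMTOR was not matched by symbol. Libraries of the SW1783 line and of wortmannin were not analysed here.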

Additional observations from a re-analysis of the deposited data

How the results depend on the processing

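At the high dose, 7 members passed, 6 to 9 with a library left out, and 4 in edgeR on the 2 groups. At the medium dose, where 0 passed, DESeq2 on the 2 groups called 2 and leaving out a library 0 to 2. At the low dose leaving out a library gave 0 to 1. From the medium to the high dose, 5 passed, 0 in edgeR on the 2 groups, 3 with a fold change over 1.5 required, and 4 to 8 with a library left out. From the low to the medium dose, 0 passed, 2 in DESeq2 and 1 in edgeR on the 2 groups. In each comparison the highest count with a library left out came without high-dose replicate 2, except from the low to the medium dose, where none was called. With the replicate number as a block, 6 members passed at the high dose (SLC1A5 was lost), 5 from the medium to the high dose and 0 elsewhere. Correlations of deviations were −0.26 to 0.14 between samples with the same number and −0.24 to 0.31 between samples with other numbers. Only 3 of 12 libraries were nearest to their own number, so the numbers were not taken as pairs. The lowest and highest values all involved a high-dose library, where replicate 2 stood apart, so this check could miss a pairing. All genes past the test at the high dose numbered 887, 181 in edgeR on the 2 groups, and 433 to 2934 with a library left out. At the medium dose they numbered 155 and from 59 to 1077 over all settings, at the low dose 19 and 10 to 318, from the medium to the high dose 137 and 10 to 333, and from the low to the medium dose 22 and 8 to 154. Differences near 0 changed sign and none of these passed the test. SLC7A6 at the high dose was 0.000479 in DESeq2 on all libraries, 0.0035 in DESeq2 on the 2 groups, and −0.0861 to 0.134 with a library left out. With a library left out, the log2 difference from the vehicle at the low dose ran from −0.122 to 0.0117 for SLC3A2, −0.0199 to 0.0519 for SLC7A5, −0.0135 to 0.0344 for SLC1A5 and −0.166 to 0.0617 for SLC6A9. That from the medium to the high dose ran from −0.204 to 0.0176 for SLC7A6. That from the low to the medium dose ran from −0.0247 to 0.0545 for SLC7A6, −0.0773 to 0.0239 for SLC43A1 and −0.0558 to 0.0458 for SLC1A4. The cause of these changes was not tested. Counts of SLC6A9 limit its precision, and the other members had at least 171 counts in every library.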
